A study of Arabidopsis thaliana and Zea mays with 12 samples.

Results

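Light reaches the transcription of Arabidopsis genes through a small set of regulators, and 10 of them are described here in wild-type plants. These are the basic helix-loop-helix (bHLH) factors PIF1, PIF3, PIF4, PIF5, PIF7 and HFR1, the basic leucine zipper factors HY5 and HYH, and the ubiquitin ligase proteins COP1 and SPA1. They were chosen by gene identifier as textbook members of this pathway, and all 10 were found among the 27411 genes of the expression table. The series holds 12 samples, of which the 2 RNA-seq replicates of wild-type Arabidopsis thaliana (strain Col-0, leaves by the label, age 3 weeks, grown at 22 °C under long days) have values used here. The RNA-seq methods name plants as the source of the RNA and do not say leaves. The other 10 samples, which profile the DNA modification N4-acetyldeoxycytosine (4acC) in wild-type, NH2OH-treated wild-type, met1 and rdd plants and in maize or serve as input, were not analysed here. With a single condition, no comparison between groups was possible, and every value below describes these 2 libraries. The methods call the replicates biological, but neither the number of plants in each nor the time of day of harvest was found in the labels or methods, so the spread below is that between these libraries. Values are FPKM, the number of fragments of a gene per kilobase of exon, scaled to the size of the library. Levels of different genes are set side by side per length, which holds only as far as the gene lengths behind the values do. For several members these lengths differ from those of the annotated transcripts, as given at the end.

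In darkness, PIF proteins hold seedlings in an etiolated state by promoting growth genes and repressing genes of greening, and the COP1 and SPA proteins mark HY5, HYH, HFR1 and other light-promoting factors for degradation. In light, phytochromes bind the PIFs and lead to their phosphorylation and, for most of them, their loss. Photoreceptors also block COP1 and SPA, so that HY5 accumulates and turns on genes of photomorphogenesis. In green leaves the same proteins act in shade avoidance, in the response to warmth and in flowering. Much of this control acts on the proteins, which RNA-seq does not measure.

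The PIFs are joined by a short motif that binds the light-activated form of phytochrome B, read as Glu and Leu, then 4 residues of any kind, then Gly and Gln. Its coding sequence was looked up in the longest annotated coding sequence of each gene (TAIR10.1) and is shown because it separates the 5 PIFs from HFR1, a bHLH relative that dimerizes with PIFs. The codons of the fixed residues are in capitals:

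PIF1: GAGCTTttatggcagaacGGTCAA

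PIF3: GAGCTGgtgtgggaaaatGGTCAG

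PIF4: GAGTTAttatggcgagatGGACAA

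PIF5: GAGCTAttgtggagagatGGTCAA

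PIF7: GAGCTCacatgggaaaatGGGCAA

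These stretches of 24 bases lie at chr2:8706307-8706330 on the minus strand for PIF1, chr1:3077397-3077420 on the plus strand for PIF3, chr2:17887177-17887200 on the plus strand for PIF4, chr3:21829661-21829684 on the minus strand for PIF5 and chr5:24640251-24640274 on the minus strand for PIF7. The motif was encoded by 5 of the 10 members and by 114 of 26704 annotated coding genes (0.427%), and no match was found in HFR1. The motif by which COP1 recognizes its substrates, searched as Val, Pro, Glu or Asp, any residue and Gly, was found in HY5 at chr5:3594430-3594444 on the minus strand, as GTGCCGGAGtttGGA with the codons of the fixed residues in capitals. It was encoded by 1 member and by 196 of the 26704 genes (0.734%). Other spellings of this motif were not searched, and a missing match says only that these letters are not in the annotated sequence. PIF4 and PIF5 were the closest pair by protein, with 69.5% of 394 aligned residues identical. HY5 and HYH shared 48.3% of 145 aligned residues, and the other pairs of bHLH members shared 28.6 to 38.6%.

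The precision of the levels could be taken from the values themselves. For 21296 of the 21309 genes with a value above 0 in both replicates (99.9%), the 2 FPKMs equaled whole numbers of reads divided by a gene length that was a whole number of bases (within 0.0001) and by 1 library total per replicate. These totals were 93100036 in replicate 1 and 105573623 in replicate 2, so that 1 read in a gene of a kilobase gives 0.0107 FPKM in replicate 1 and 0.00947 in replicate 2. The methods name Cufflinks, which estimates fragment numbers that need not be whole, as the source of the values, and how whole numbers of reads arose was not tested. All 10 members had such read numbers, from 79 reads of HFR1 in replicate 1 to 6035 reads of PIF4 in replicate 2. The read numbers of PIF5 and PIF7 are known only up to a common factor, and the factor that brings the gene length nearest to the median of the annotated transcripts was used. Counting intervals below are exact 95% Clopper-Pearson intervals of the ratio between the libraries. They cover counting error only, and treat each read as independent. Reads are not independent molecules, and it is not known whether the mates of a pair were counted separately, so the intervals may be too narrow.

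Among the PIFs, PIF4 (AT2G43010, chr2:17886101-17889087), which drives elongation in warmth and shade, had the highest level, at 29.5 FPKM in replicate 1 and 32.6 in replicate 2 (mean 31.1 ± 2.19, SD, n = 2). PIF5 (AT3G59060, chr3:21827905-21830837), its closest relative and partner in shade avoidance, was at 11.4 and 11.3 FPKM (11.4 ± 0.0541). The level of PIF4 was 2.59 times that of PIF5 in replicate 1 and 2.88 times in replicate 2, and the replicate ranges of the genes did not overlap. These folds rest on gene lengths of 1753 bases for PIF4 and 2074 for PIF5. Their annotated transcripts run from 1747 to 2348 and from 1846 to 2282 bases. PIF1 (AT2G20180, chr2:8704024-8707009), a repressor of seed germination and of chlorophyll synthesis in the dark, followed at 2.06 and 2.38 FPKM (2.22 ± 0.230). PIF7 (AT5G61270, chr5:24638491-24640765), which acts in shade and in warm days, was at 1.73 and 1.95 FPKM (1.84 ± 0.156), 17.0 times below PIF4 in replicate 1 and 16.7 times below it in replicate 2. PIF3 (AT1G09530, chr1:3075768-3079654), the founding member of the family, had the lowest level of the 5 at 1.54 and 1.46 FPKM (SD 0.0555, n = 2). PIF4 thus made up 52.2% of the summed FPKM of all 10 members in replicate 1 and 54.7% in replicate 2. In the annotation, the 3′ ends of PIF1 and PIF7 share 334 and 318 bases with the opposite-strand genes AT2G20170 and AT5G61260. The labels and methods do not say whether counting used strand, so reads in those stretches cannot be assigned with certainty.

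**Figure D1:**
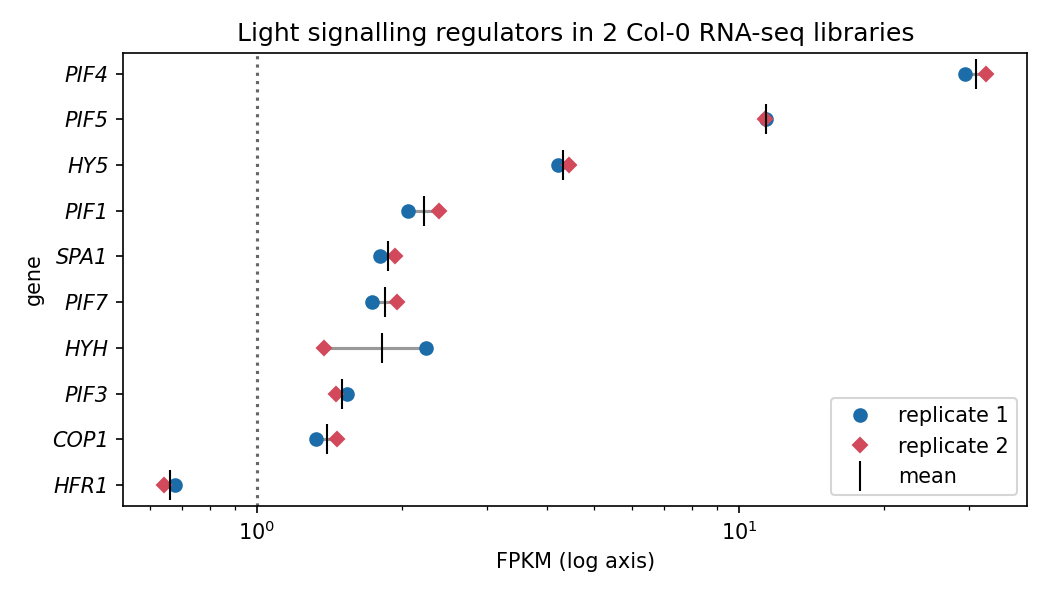
FPKM of each member in replicate 1 (circles) and replicate 2 (diamonds) on a log axis, with the mean as a vertical bar and 1 FPKM as a dotted line. PIF4 lies near 31.1 FPKM, HFR1 alone is below 1, and HYH shows the widest gap between the replicates, from 1.38 to 2.25 FPKM.

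HFR1 (AT1G02340, chr1:465616-467880), the bHLH protein that sequesters PIF4 and PIF5 and limits the shade response, was the member with the least transcript. It was at 0.677 FPKM in replicate 1 and 0.643 in replicate 2 (0.660 ± 0.0245), with 79 and 85 reads, and PIF4 was 43.6 and 50.7 times higher. Of 5 other genes for helix-loop-helix proteins that bind PIFs or their relatives, 4 were higher than HFR1 in both replicates. PAR1 and PAR2, which are also inhibitors of shade responses, had means of 40.2 ± 0.0255 and 49.9 ± 5.75 FPKM, and KDR one of 36.6 ± 2.23. HEC1, named here after its values were seen, was at 0.937 and 1.09 FPKM. HEC2 had no value above 0 in replicate 1 and stood at 0.00861 FPKM in replicate 2. Of these 5 genes, 4 were above 1 FPKM, with a median of 36.6 FPKM, against a median of 0.823 over all genes. The counts above 1 FPKM of this list and of those below stand beside 47.7% of all genes.

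Of the other PIF-like bHLH genes, PIF8 was the highest, at 5.48 and 6.67 FPKM (6.07 ± 0.837), between PIF5 and HY5. SPT, a growth repressor in leaves and a factor of carpel development, was at 3.29 and 3.32 FPKM, between HY5 and PIF1. Its relative ALC, which acts in fruit opening, was at 1.08 and 0.820 FPKM. PIL1, a shade-induced gene, was at 0.155 and 0.230 FPKM, and PIF6 at 0.262 and 0.294. Of these 5 genes, 2 had a mean above 1 FPKM.

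Of the members that act in favor of photomorphogenesis, HY5 had the highest level. HY5 (AT5G11260, chr5:3593335-3595073) was at 4.20 FPKM in replicate 1 and 4.43 in replicate 2 (4.32 ± 0.161), with 353 and 422 reads. HYH (AT3G17609, chr3:6023844-6024710), its homolog with overlapping functions, was at 2.25 and 1.38 FPKM (1.81 ± 0.613), with 155 and 108 reads. HY5 exceeded HYH in both libraries, by 1.87 times in replicate 1 and 3.21 times in replicate 2. These folds rest on a length of 902 bases for HY5, below its shortest annotated transcript of 1028 bases. A longer HY5 length would make them smaller.

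COP1 (AT2G32950, chr2:13977881-13983609), the RING-finger ubiquitin ligase subunit, was at 1.33 and 1.46 FPKM (1.40 ± 0.0974), and SPA1 (AT2G46340, chr2:19022154-19027528), which forms the substrate-binding complex with it, was at 1.80 and 1.93 FPKM (1.87 ± 0.0946). COP1 was below SPA1 in both replicates, at 0.737 and 0.757 of its level, and the ranges of the 2 genes did not overlap. SPA1 had the highest level of the 4 SPA genes in both replicates. SPA3 was at 1.24 and 1.04 FPKM, SPA4 at 0.682 and 0.747 and SPA2 at 0.583 and 0.495. The other COP, DET and cullin ligase genes examined spanned a wider range. RBX1A, the RING protein of cullin ligases, was at 60.4 ± 6.88 FPKM, and COP10, a partner of DET1 and DDB1, at 10.6 ± 0.355. DET1 was at 4.37 ± 0.292 FPKM, the scaffold CUL4 at 1.97 ± 0.241, the adaptor DDB1A at 1.04 ± 0.0672 and its paralog DDB1B at 0.231 ± 0.0304. Of these 9 genes, 6 had a mean above 1 FPKM, with a median of 1.14. The COP9 signalosome, which acts on cullins, had 9 of 10 genes above 1 FPKM and a median of 3.15, with CSN5A (10.1 ± 0.460), CSN7 (8.35 ± 0.797) and CSN6A (5.37 ± 0.217) the highest and CSN5B (0.573 ± 0.0951) the lowest.

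Ordered by mean FPKM, the members ran from PIF4 through PIF5, HY5, PIF1, SPA1, PIF7, HYH, PIF3 and COP1 to HFR1, and the highest was 47.1 times the lowest. Of the 9 neighboring pairs in this order, 5 had replicate ranges that did not overlap: PIF4 and PIF5, PIF5 and HY5, HY5 and PIF1, PIF1 and SPA1, and COP1 and HFR1. From SPA1 through PIF7, HYH and PIF3 to COP1, each gene overlapped its neighbor, although the ends of this stretch, SPA1 and COP1, did not overlap each other. The order within this stretch and the folds between members also depend on the gene lengths behind the values. In all, 9 of the 10 members had a mean above 1 FPKM, where 47.7% of all genes did. In the top 25.0% of all genes, which began at 6.10 FPKM, 2 members were found, PIF4 and PIF5. PIF4 was higher than 90.0% of all genes and HFR1 higher than 47.4%. The median of the members was 1.85 FPKM, above the 0.823 of all genes and below the 6.76 of the genes above 1 FPKM.

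**Figure D2:**
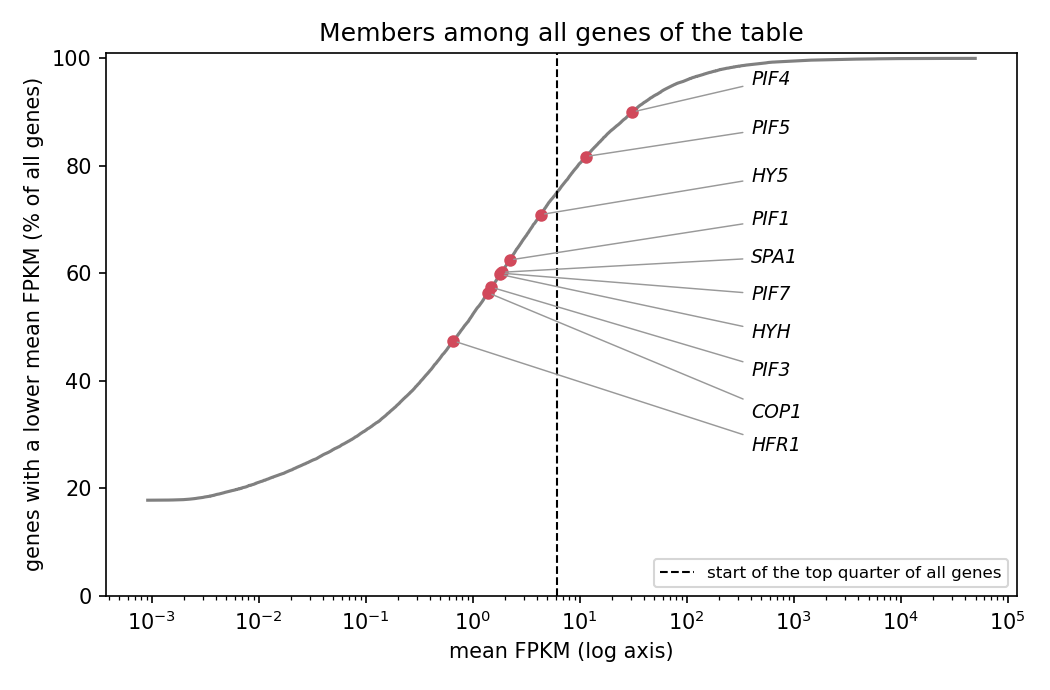
Share of all 27411 genes with a lower mean FPKM (vertical axis) against mean FPKM on a log axis, with the 10 members as points on the curve and the start of the top 25.0% as a dashed line. PIF4 and PIF5 lie beyond the dashed line at 6.10 FPKM, and HFR1, at 0.660 FPKM, is the lowest point.

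Between the replicates, most members differed little. The SD was under 10% of the mean for 8 of 10 members, from 0.477% for PIF5 upward, and was 10.4% for PIF1 and 33.8% for HYH. On the scale of FPKM + 1, none of the 10 members and 0.383% of all genes were at least 1.5-fold apart. HYH was the widest of the members on this scale, with a log2 ratio of replicate 2 over replicate 1 of -0.45, and 2.92% of genes above 1 FPKM had a larger difference in either direction. Without the added 1, the level of HYH in replicate 2 was 0.614 of that in replicate 1 (counting interval 0.476 to 0.791). The counting interval also excluded 1 for PIF4, which was 1.11-fold higher in replicate 2 (1.06 to 1.15), and for PIF1, which was 1.16-fold higher there (1.01 to 1.33). These 3 of 10 members stand beside 36.7% of the 21296 genes with read numbers. For the other 7 members the interval held 1. Over genes above 1 FPKM, however, the median ratio was 0.942. This median, a reference chosen after seeing the data, was excluded by the intervals of 6 members and of 35.0% of genes with read numbers. PIF7, COP1 and SPA1 were added on the side of replicate 2, though PIF7 was not with its smallest read pair. The interval was narrow for PIF5, with a ratio of 0.993 (0.937 to 1.05), and wide for HFR1, with 0.949 (0.690 to 1.31). HY5 had a ratio of 1.05 (0.913 to 1.22), COP1 of 1.10 (0.943 to 1.29) and SPA1 of 1.07 (0.966 to 1.19). With 1 library on each side, these ratios compare the 2 libraries only.

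**Figure D3:**
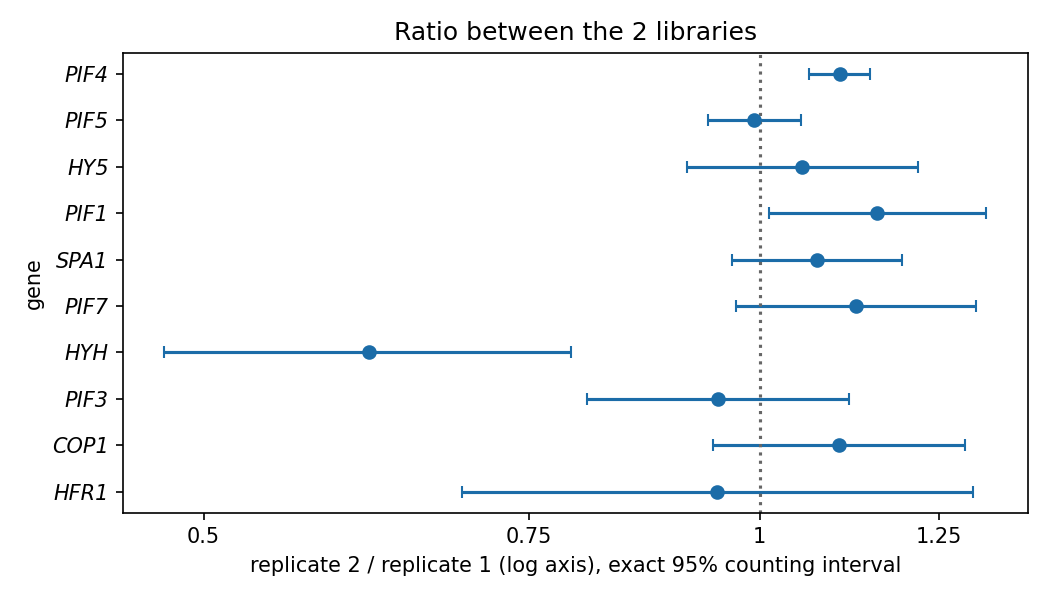
Ratio of replicate 2 to replicate 1 for each member on a log axis, with exact 95% counting intervals as bars and a ratio of 1 as a dotted line. HYH lies to the left at 0.614, and the bars of PIF4 and PIF1 lie to the right of the line.

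PIF proteins bind the G-box CACGTG and the related PBE-box CACATG, and HY5 binds G-boxes and other elements with an ACGT core. All 3 were searched on both strands from 250 bases before to 50 bases after 1 annotated start site per gene in TAIR10.1. This was the most upstream start among the annotated transcripts of the gene, and other starts were not searched. Every G-box also counts as an ACGT core. A G-box was found in 1 of 10 members, PIF5, and in 7.79% of the 26704 windows of all genes. A PBE-box was found in 2 members, HY5 and PIF7, and in 13.0% of all windows, and in PIF7 it lay after the start site. An ACGT core was found in 7 members and in 50.1% of all windows. The sequences before the start sites of PIF4, PIF5 and HY5, the 3 members with the most transcript, are shown with these matches in capitals:

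PIF4: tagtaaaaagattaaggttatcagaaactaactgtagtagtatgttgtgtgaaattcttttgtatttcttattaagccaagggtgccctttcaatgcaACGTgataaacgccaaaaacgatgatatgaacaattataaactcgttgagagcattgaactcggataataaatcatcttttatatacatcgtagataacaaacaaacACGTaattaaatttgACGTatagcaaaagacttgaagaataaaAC

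PIF5: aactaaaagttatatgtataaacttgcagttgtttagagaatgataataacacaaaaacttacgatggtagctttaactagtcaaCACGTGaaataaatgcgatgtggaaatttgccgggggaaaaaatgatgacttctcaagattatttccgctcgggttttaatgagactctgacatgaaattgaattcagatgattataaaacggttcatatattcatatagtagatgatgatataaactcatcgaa

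HY5: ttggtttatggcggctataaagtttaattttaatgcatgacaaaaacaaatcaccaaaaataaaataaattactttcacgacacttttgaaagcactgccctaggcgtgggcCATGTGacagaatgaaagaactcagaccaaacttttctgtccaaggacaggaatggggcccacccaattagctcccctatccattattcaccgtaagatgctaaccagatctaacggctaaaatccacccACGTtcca

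They lie at chr2:17885851-17886100 on the plus strand, chr3:21830838-21831087 on the minus strand and chr5:3595074-3595323 on the minus strand. PIF4 held 4 ACGT cores, which begin 152, 45, 30 and 2 bases before the start site, and no G-box. The G-box of PIF5 begins 165 bases before the start site. In HY5 a PBE-box begins 138 bases and an ACGT core 8 bases before it. PIF1 and PIF3, with 8 and 6 annotated transcripts, held none of the 3 motifs in the window searched. A match describes the sequence only, and binding was not measured in these libraries.

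**Figure D4:**
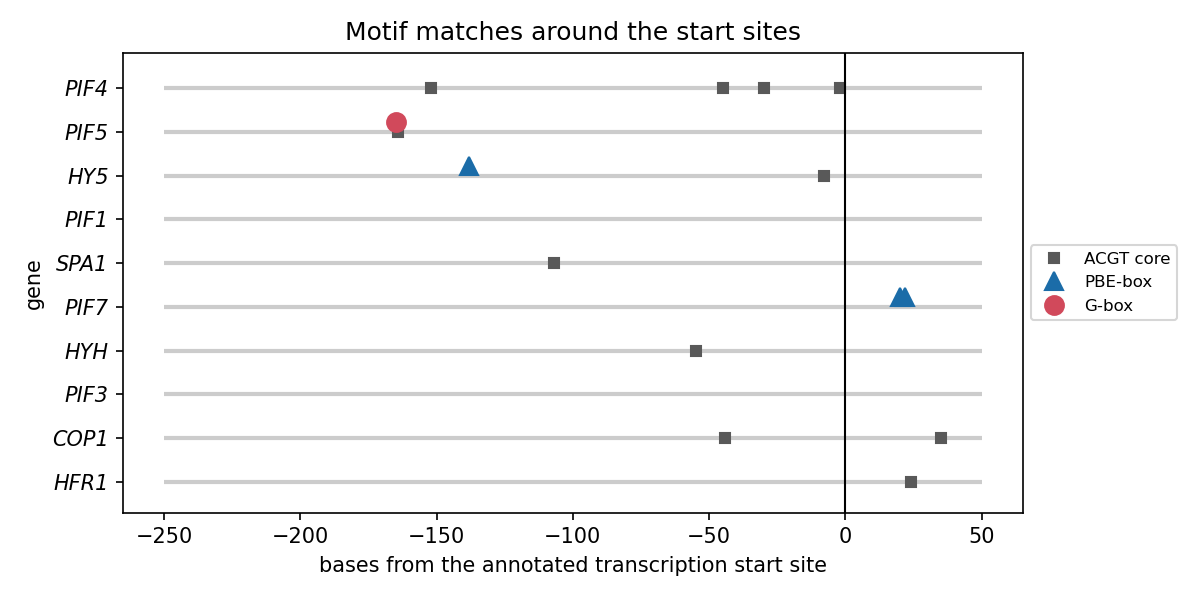
Position of each motif match (squares for the ACGT core, triangles for the PBE-box, the circle for the G-box) in bases from the most upstream annotated start site. There is 1 line per member, with members in order of mean FPKM. PIF4 carries 4 ACGT cores, the only G-box is that of PIF5, and the lines of PIF1 and PIF3 are empty.

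Upstream of the members, the photoreceptor genes were split by kind. The 5 phytochrome genes, whose products sense red and far-red light, were all below 1 FPKM, with PHYE the lowest at 0.228 ± 0.0227. The UV-B receptor gene UVR8 was at 25.3 ± 0.986 FPKM, and the blue light receptor genes CRY1 and CRY2 at 7.29 ± 0.156 and 4.71 ± 0.0244. Of the 8 photoreceptor genes, 3 were above 1 FPKM, beside 47.7% of all genes, with a median of 0.693. Of 9 genes for kinases and ubiquitin ligases that act on PIF proteins, 7 were above 1 FPKM, with a median of 2.79. The F-box genes EBF2 (38.9 ± 1.49) and EBF1 (14.6 ± 0.923) and the adaptor gene BOP2 (4.14 ± 0.173) were the highest of them, and the kinase gene PPK1 was the lowest at 0.804 ± 0.153.

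B-box (BBX) proteins, which act with HY5 or are targets of COP1, had 11 of 12 genes above 1 FPKM and a median of 15.4, below the 36.6 of the helix-loop-helix partners of PIFs. BBX4 was at 766 and 846 FPKM, above every member and every other pathway gene examined, followed by BBX24 (121 ± 3.55), which opposes HY5, and BBX28 (121 ± 8.37). The lowest was BBX23 at 0.0480 ± 0.00943. Of 9 growth and shade genes that PIFs activate, 6 were above 1 FPKM, with a median of 2.85. The auxin response genes IAA19 (16.1 and 15.9) and IAA29 (12.4 ± 1.09) and the shade marker ATHB2 (7.72 ± 0.524) were the highest of them, and the auxin synthesis gene YUC9 was the lowest at 0.101 ± 0.0371. Of 10 genes that HY5 activates in light, 8 were above 1 FPKM, with a median of 3.13. The carotenoid gene PSY (23.0 ± 0.540), the flavonoid gene CHI (13.0 ± 0.592) and RUP2 (9.09 ± 0.925), a negative regulator of UVR8, were the highest, and the flavonol regulator MYB12 was the lowest at 0.288 ± 0.0843.

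**Figure D5:**
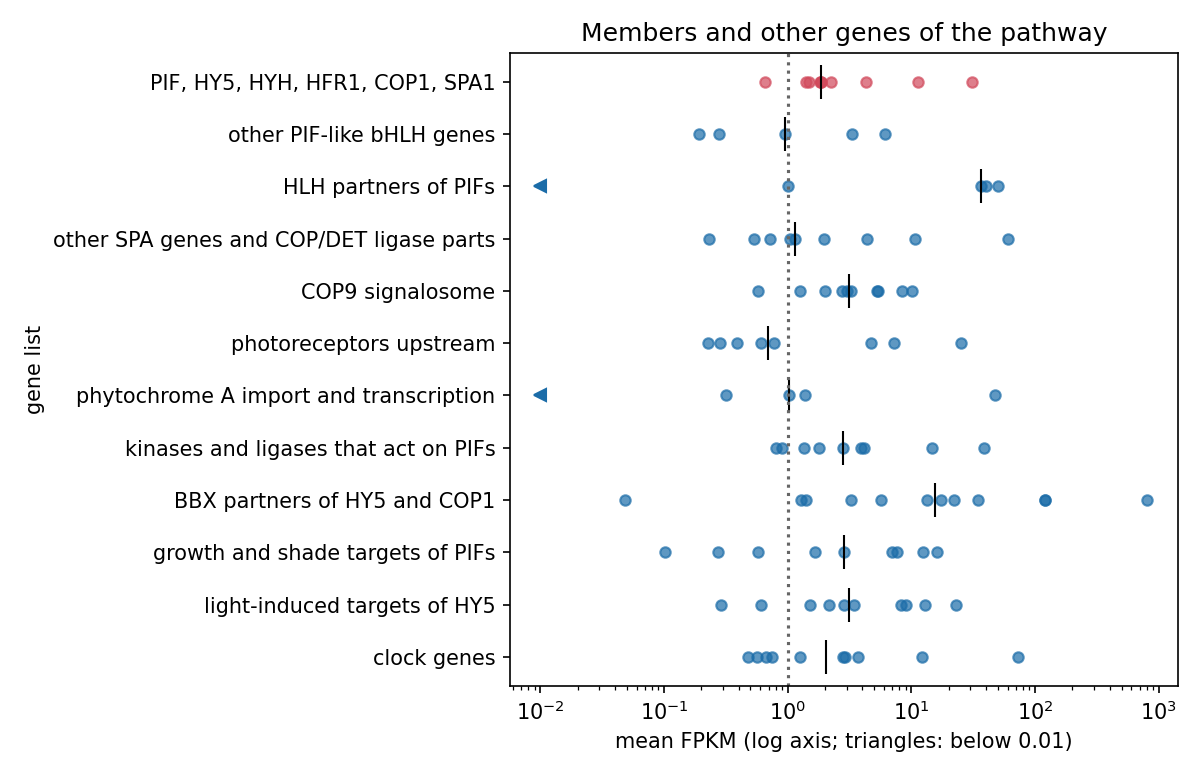
Mean FPKM on a log axis of the 10 members (top line) and of the genes of 11 other pathway lists, with 1 point per gene, a vertical bar at each list's median and triangles for genes below 0.01 FPKM. The BBX list reaches 806 FPKM, while the median of the photoreceptor list, 0.693, lies below 1.

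The labels name leaves, while the RNA-seq methods name plants. Organ markers were looked up, but leaf markers are high in any green shoot and cannot tell leaves from whole plants. The 3 leaf markers ranged from 1884 to 40786 FPKM, with RBCS1A, a small subunit of Rubisco, at 22156 and 27040. Of the markers of other organs, the 3 flower genes reached 0.522 FPKM and the 3 seed genes 0.0156. Of the 3 root genes 1 was above 1 FPKM, PYK10 at 7.02 and 7.98, which placed it in the top 25.0% of all genes. Fewer cells with a transcript and less transcript per cell cannot be told apart in these bulk samples.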

How the data were processed

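RNA-seq values of 2 wild-type replicates were used. The authors removed ribosomal RNA with an mRNA kit (the labels call the molecule polyA RNA) and sequenced paired-end libraries. TopHat v2.0.9 was their aligner, with TAIR10 as the genome, and their methods name Cufflinks v2.1.1 for the FPKM values of coding genes that they deposited. These values behave as whole reads over a gene length and a library total, which is not the usual form of Cufflinks output. For the annotation release and the use of strand, nothing was found in the labels or methods.

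The mean and SD were taken over the replicates, and replicate ratios as log2 of FPKM + 1 (pseudocount of 1) with no filter on low values. Library totals were solved from genes whose FPKM times length is that of 1 read (200 genes in replicate 1 and 205 in replicate 2), and each gene's read numbers from the ratio of its FPKMs. For PIF5 and PIF7 the smallest read pairs were tried as an alternative. No test was made, because 1 condition has values.

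Members and gene lists were chosen with earlier results of these data known. All members were named, every gene of the PIF-like and the SPA and ligase lists, and of the other lists the 3 highest genes and the lowest. No gene was named for a like pattern, since 2 samples hold none. Sequences and coordinates came from RefSeq's TAIR10.1, matched by locus identifier. Motifs in proteins were found by translating the longest annotated coding sequence, and identity is over aligned residues of a global alignment (BLOSUM62). Tables were handled with pandas 2.3.3 and numpy 2.4.6, intervals came from scipy 1.17.1 and plots from matplotlib 3.10.9, under Python 3.11.15.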

Additional observations from a re-analysis of the deposited data

How the results depend on the processing

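No paired analysis was possible because the replicates belong to a single condition. The counts of members above 1 FPKM (9) and in the top 25.0% (2) were unchanged with either replicate left out and with values scaled to a common sum per library, and 9 members were above 1 in both replicates. With a threshold of 0.5 FPKM all 10 members and 55.7% of all genes passed, and with 2 FPKM 4 members and 38.9% of all genes did. Without replicate 1, the counts above 1 FPKM fell from 6 to 5 (SPA and ligase list), 9 to 8 (COP9 signalosome) and 3 to 2 (phytochrome A genes). Without replicate 2, the PIF-like list rose from 2 to 3 and the helix-loop-helix partners fell from 4 to 3. The other lists kept their counts with either replicate left out. With a pseudocount of 0.1 or 0.01, 1 member, HYH, was at least 1.5-fold apart between the replicates, with log2 ratios of -0.66 and -0.70, in place of 0. Beside this 1 of 10 members, the counts over all genes were 854 of 27411 and 3184 of 27411, in place of 105 of 27411. The median ratio of replicate 2 to replicate 1 over genes above 1 FPKM was 0.942. Against this median, a setting chosen after seeing the data, 6 members in place of 3 had counting intervals that excluded it, PIF1, PIF4, PIF7, COP1 and SPA1 above and HYH below, as did 35.0% of all genes with read numbers. With the smallest read pairs, also chosen after seeing the data, the count stayed at 3 (PIF1, PIF4 and HYH), beside 33.4% of all genes with read numbers, and the interval of PIF7 widened to 0.832 to 1.53. That interval holds the median of 0.942, so the place of PIF7 among the 6 depends on the factor used. The lower bound of COP1 was only 1.0009 times the median. HFR1, with 79 and 85 reads, was the member whose ratio depth limited most.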

Other observations

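Clock genes, some of which set the daily rhythm of PIF4 and PIF5 transcripts, had a median of 2.03 FPKM, and 6 of 10 were above 1. ELF4 (73.1 ± 13.4), LUX (12.2 ± 0.0130) and TOC1 (3.73 ± 0.0101) were the highest, and LHY was the lowest at 0.478 ± 0.112. CCA1 (0.568), ELF3 (0.665) and GI (0.752) were also below 1 FPKM. Levels of different genes do not give the time of day of harvest.

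The genes around phytochrome A were uneven. FHY1, which carries phytochrome A into the nucleus, was at 52.3 FPKM in replicate 1 and 42.1 in replicate 2, while its homolog FHL was at 1.03 ± 0.0862. The transcription factor gene FHY3 was at 1.39 ± 0.125 and LAF1 is listed at 0 in both replicates. Of these 5 genes, 3 were above 1 FPKM, with a median of 1.03.

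The gene lengths that the read numbers imply are 902 bases for HY5, 741 for HYH, 1753 for PIF4, 2348 for COP1 and 3799 for SPA1. For PIF5 and PIF7 they are 2074 and 1960 at the factor used and multiples of 1037 and 490 otherwise. The 1960 bases of PIF7 exceed its longest annotated transcript, 1953 bases in TAIR10.1, so its factor is uncertain. The lengths of HY5, COP1 and SPA1 fall below their shortest annotated transcripts, of 1028, 2401 and 3933 bases. So do those of PIF3 (2017 against 2143) and HFR1 (1253 against 1391). The lengths of PIF1, PIF4, PIF5 and HYH lie within the annotated range. Where the lengths in the values come from was not tested. The values of 13 genes could not be written as whole reads in this way.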
